A study of Mus musculus with 4 samples.

Results

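Skin that received nicotinamide cream on top of an all-trans retinoic acid (ATRA) cream was compared with skin that received the ATRA cream alone. The comparison rests on 2 of the 4 arrays in the series, ATRA+NIC and ATRA, with 1 array each. Genes were described when their log2 intensity averaged 8.5 or more over all 4 arrays, which kept 6363 of 24171 genes on the array. Birc5 lay just inside this limit, with a mean of 8.50045, and Cog5 just outside, with a mean of 8.49975; their differences were -0.68 and 0.09. All mice were male BALB/c animals of 8 weeks, and creams were put on the back skin 2 times a day for 5 days. The ATRA+NIC group received a 0.1% ATRA cream with a nicotinamide (NIC) cream. The ATRA group received the 0.1% ATRA cream, the NIC group the nicotinamide cream, and the Control group an oil/water cream. The labels give no concentration of nicotinamide. The design text speaks of 4 mouse skins, and it is not stated if several mice were pooled. With 1 array per group there is no spread between replicates and no test is possible, so every difference below describes these arrays.

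ATRA, a derivative of vitamin A, switches genes on through nuclear retinoic acid receptors. Nicotinamide is an amide of niacin; cells rebuild NAD from it by a salvage pathway, and it is also the product that sirtuins and poly(ADP-ribose) polymerases release when they consume NAD. Whole skin holds epidermis, hair follicles and dermis. The hair shaft is made inside growing follicles from hair keratins, which form filaments, and keratin-associated proteins (Krtap), which cross-link the filaments through sulfur bonds or pack between them. Retinoids are known to alter keratinocyte differentiation and the hair cycle.

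The arrays carried strong skin signals. Krt14, the main basal keratinocyte keratin, read 34261, 35066, 31801 and 32685 on ATRA+NIC, ATRA, NIC and Control, and loricrin (Lor), a cornified envelope protein, read 40494, 34236, 40540 and 44983. They also carried strong liver signals on all 4 arrays. Alb, the gene of serum albumin, read 14689, 15459, 8302 and 11694 in the same order, and the liver enzyme gene Cyp2e1 read 28048, 32254, 25561 and 28202. Of 44 hepatocyte genes, 43 read at least 2 times the random control probes on each array, and their summed intensity was 308381, 276708, 213133 and 250064. Genes of heart muscle were also present, with 12 of 13 at least 2 times the random probes on each array and sums of 8624, 6448, 4247 and 5069. Myh6, the myosin heavy chain of the atrium and adult mouse ventricle, read 1809, 1382, 855 and 1287. The random probes read 36.3, 34.8, 33.99 and 34.2. Medians of kidney, pancreas, brain, lung and small intestine markers lay between 33.7 and 81.3 on the 4 arrays. Some members read above background: at least 2 times the random probes were 1, 1, 1 and 2 of 11 kidney, 1, 3, 1 and 0 of 9 pancreas, 4, 2, 4 and 4 of 8 brain, 1, 2, 3 and 1 of 4 lung and 1, 0, 2 and 2 of 5 small intestine genes. The source of the liver and heart signals was not tested, and the labels name only skin. No gene of these lists was listed at 0.

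**Figure D1:**
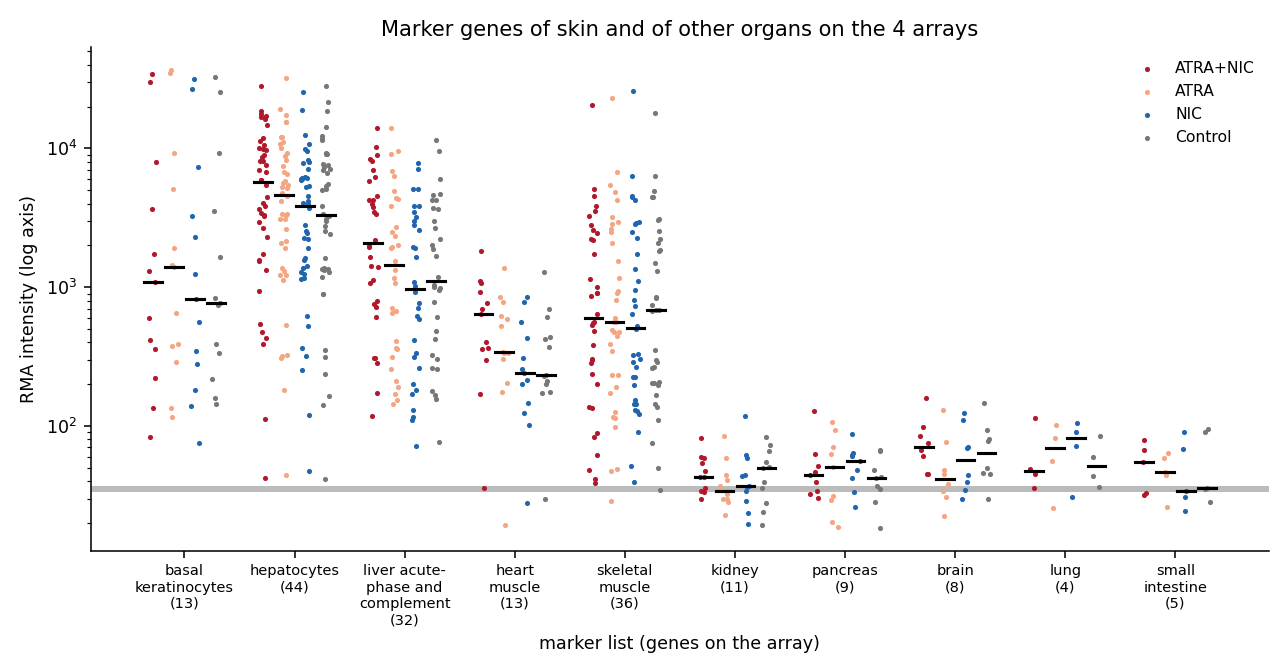
Intensity on a log axis of marker genes of skin and other organs, with a point for each gene on the array, a black bar for the list's median and a colour for each array in the order ATRA+NIC, ATRA, NIC and Control. The grey band is the range of the random control probes, 33.99 to 36.3; hepatocyte, liver acute-phase and heart lists lie far above it on all 4 arrays, and the medians of kidney, pancreas, brain, lung and small intestine lists lie lower, between 33.7 and 81.3.

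The pair of arrays differed in few of the described genes. On the log2 scale the median difference, ATRA+NIC minus ATRA, was 0.00 (-0.0047), and the middle 95% of genes lay between -0.69 and 0.79. Above 0 were 3140 of the described genes (49.35%). At least 2-fold higher on ATRA+NIC were 100 genes (1.57% of those described), and at least 2-fold lower were 25 (0.393%). The lower count depended on the processing: it was 62 with the brightest target of each gene, 53 with a minimum mean of 8 and 12 with a minimum mean of 9, while the higher count lay between 79 and 123 under the 9 alternatives tried. Of the 100 higher genes, 65 were hair shaft or inner root sheath genes or lay inside Krtap gene clusters. Another 5 were in the liver and heart lists and 30 were others. Of the 6363 described genes, 6246 lay outside the hair and cluster set, and 35 of these were higher. Outside the liver and heart lists lay 6292, of which 95 were higher. Of the 25 lower genes, 0 were in either set, but most described genes, 6175 of 6363, lay outside both sets as well. Most of these genes, 106 in all, rest on a single target of 3 probes. Of the 19 with several targets, 16 had all targets on the same side of 0 and 9 had all targets at least 2-fold apart.

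**Figure D2:**
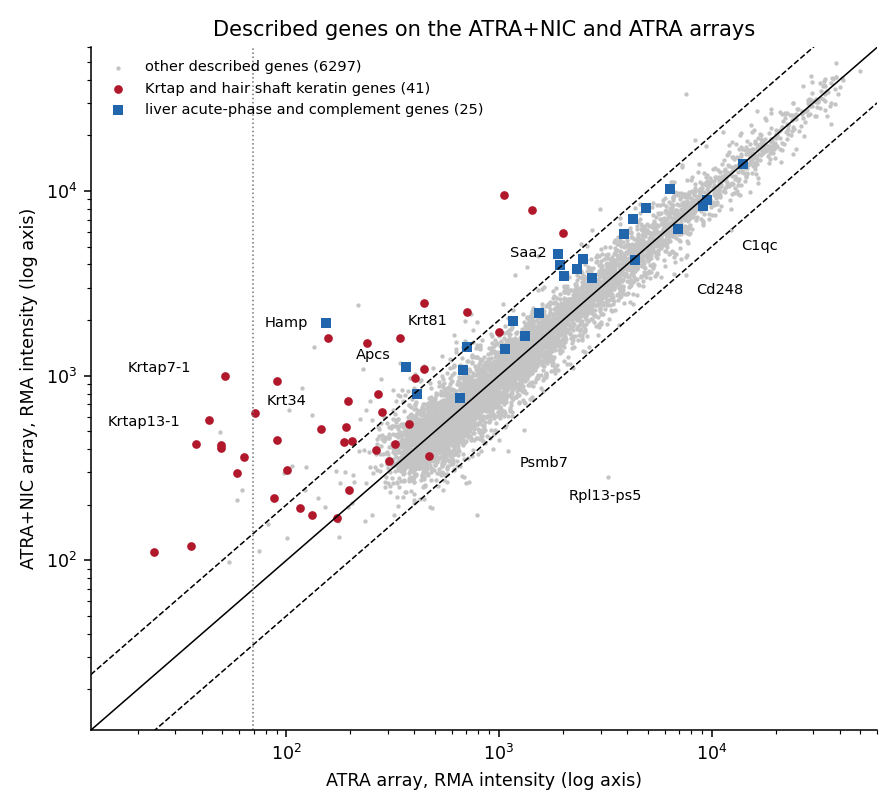
RMA intensity of 6363 described genes on the ATRA+NIC array (vertical log axis) against the ATRA array (horizontal log axis). The solid line marks equal values, the dashed lines 2-fold differences and the dotted line 2 times the random probes on ATRA (69.6); Krtap and hair shaft keratin genes (red) lie mostly above the upper dashed line, and liver acute-phase genes (blue) mostly above the solid line with Hamp farthest.

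Hair shaft genes gave the largest differences. Of 41 Krtap genes on the array 33 were described. At least 2-fold higher on ATRA+NIC were 27 of them, against 1.57% of all described genes. Lower by that much were 0, against 0.393%. Their median difference was 1.75 against 0.00 (-0.0047) over all described genes. Their median intensity was 446 on ATRA+NIC, 156 on ATRA, 13307 on NIC and 4671 on Control. The ATRA+NIC levels thus stood above ATRA but stayed below both arrays without ATRA. All 33 read lower on ATRA+NIC than on Control, at a median of 12.4% of the Control level. The minimum mean was taken over all arrays, so genes dim on ATRA+NIC could pass through NIC and Control, which favours this order. Over all 41 Krtap genes on the array, with no minimum, medians were 420 on ATRA+NIC, 101 on ATRA, 12516 on NIC and 4125 on Control. In RNA from whole skin, fewer cells of a type and less RNA per cell cannot be told apart.

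Krtap7-1, a glycine- and tyrosine-rich shaft protein, read 994 on ATRA+NIC, 51.4 on ATRA, 22708 on NIC and 7063 on Control. Its ATRA reading lies under 2 times the random probes (69.6), so the gene was at least 14.3-fold higher on ATRA+NIC. Krtap13-1, a sulfur-rich shaft protein, read 574, 43.3, 12720 and 3874 in that order and was at least 8.25-fold higher. The same holds for Krtap19-9b, at least 6.16-fold higher, and Krtap19-2, at least 6.03-fold. In all, 13 described genes read under that limit on ATRA, 9 of them in the Krtap list, and with such genes put at their bound the Krtap median was 1.62 and 25 genes were at least 2-fold higher. Krtap genes resemble each other in sequence and a probe may read a related gene, so the values of single members are uncertain.

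Members of all 3 Krtap protein classes read higher on ATRA+NIC; 3 described genes were put in no class. Among the high glycine-tyrosine class, small proteins of the hair cortex, 9 of 10 described genes were at least 2-fold higher, with a median difference of 2.49. Among the high sulfur class 8 of 10 were, with a median of 1.98; 4 of these genes read under the limit on ATRA, and with them at their bound 6 were at least 2-fold higher and the median was 1.21. Among the ultrahigh sulfur class, which includes proteins of the cuticle, 7 of 10 were, with a median of 1.28. The glycine-tyrosine class also had 4 genes under the limit, and with them at their bound 9 were at least 2-fold higher and the median was 2.46. With these bounds the classes overlapped, with ranges of 0.19 to 3.84, -0.03 to 3.35 and 0.42 to 3.16. The genes with the smallest differences in the family were Krtap26-1, which read 169 on ATRA+NIC and 173 on ATRA, Krtap19-3, which read 345 and 302, and Krtap4-7, which read 177 and 132; they were picked out after their values were seen.

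Hair shaft keratins split. Krt34 is a type I keratin of the shaft (chromosome 11, 99898701 to 99902846 on MM9). It read 630.2 on ATRA+NIC, 71.2 on ATRA, 21543 on NIC and 7193 on Control, a difference of 3.15. Its ATRA reading lies just above 2 times the random probes (69.6), so the size of this difference is uncertain. Krt81, a type II keratin that pairs with type I partners in the filament, read 1594, 341, 31730 and 10449, a difference of 2.23, and Krt83 differed by 1.91 and Krt33a by 1.56. These 4 of 8 described members were at least 2-fold higher. Krt85, Krt33b, Krt82 and Krt35, named here after their values were seen, differed by 0.53, 0.39, 0.28 and -0.35, and Krt35, a keratin of the early cortex and matrix, was the only member that read lower on ATRA+NIC than on ATRA (366 against 468). The list's median was 1.05, but it was 0.53 with the array's own symbols and 0.46 with a minimum mean of 8.

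**Figure D3:**
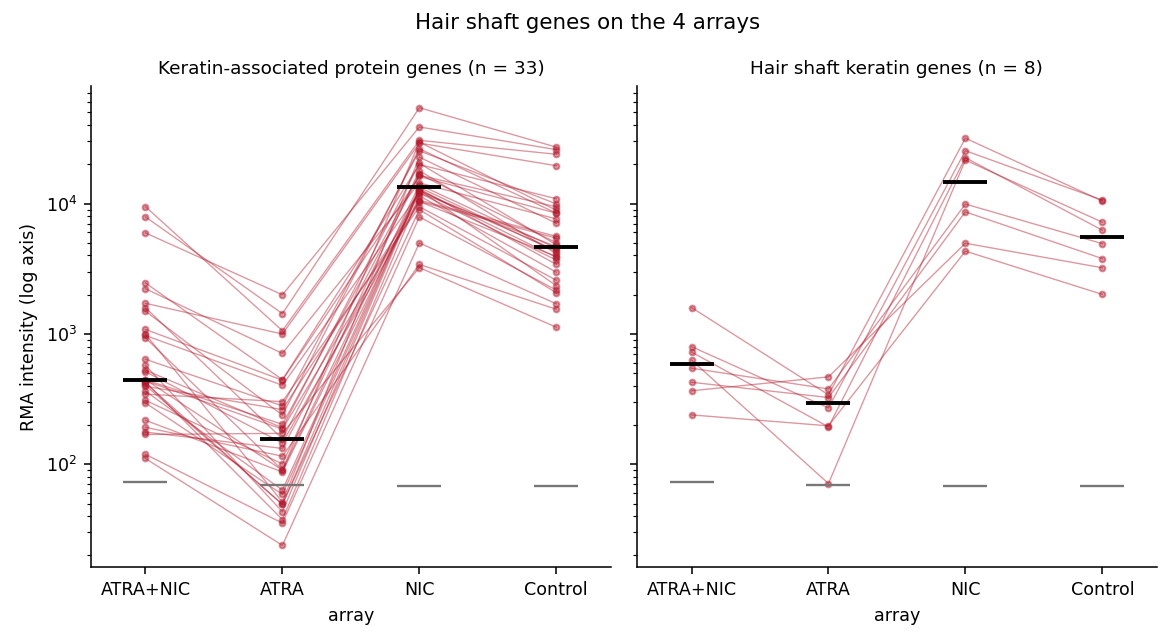
Intensity on a log axis of 33 Krtap genes and 8 hair shaft keratin genes on the ATRA+NIC, ATRA, NIC and Control arrays, with a line for each gene, a black bar for the median and a grey bar for 2 times the random probes. Medians of the Krtap genes were 446, 156, 13307 and 4671, so the ATRA+NIC array stood above ATRA and below NIC and Control.

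Promoters of these genes are shown because Krtap and hair keratin genes read higher together. RefSeq windows (GRCm38.p6, 250 bases before to 50 after the annotated start) were found for 28 of the 33 described Krtap genes, and TATAAA, searched on both strands, lay in 22 of them (78.6%), against 13.6% of all 32851 windows and 9.85% of those of described genes. The motif CTTTGA, the core that LEF/TCF factors bind, lay in 9 (32.1%), against 16% of all windows and 11.9% of those of described genes. These motifs were chosen after the values were seen, and a match describes the letters only. Capitals mark TATAAA and CTTTGA in these windows of Krt34 (chr11:100041505-100041804, minus strand) and Krtap22-2 (chr16:89010710-89011009, minus strand):
Krt34: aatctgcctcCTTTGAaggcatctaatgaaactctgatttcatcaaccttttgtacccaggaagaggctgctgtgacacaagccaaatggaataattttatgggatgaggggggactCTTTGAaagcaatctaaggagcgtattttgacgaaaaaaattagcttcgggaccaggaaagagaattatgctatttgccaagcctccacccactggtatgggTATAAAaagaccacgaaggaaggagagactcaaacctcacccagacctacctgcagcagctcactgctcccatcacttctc
Krtap22-2: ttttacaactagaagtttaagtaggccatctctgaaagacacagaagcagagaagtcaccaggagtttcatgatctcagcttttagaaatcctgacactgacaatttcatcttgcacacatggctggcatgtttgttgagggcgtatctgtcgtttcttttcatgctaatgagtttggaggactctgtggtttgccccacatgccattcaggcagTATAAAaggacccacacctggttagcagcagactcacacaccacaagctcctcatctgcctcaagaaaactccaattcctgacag
TATAAA begins at -31 in Krt34 and at -35 in Krtap22-2, counted from the annotated start, and CTTTGA begins at -240 and -133 in Krt34. Krt34 read 630.2 and 71.2 on ATRA+NIC and ATRA, and Krtap22-2 read 934 and 90.2, a difference of 3.37.

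Many unnamed and predicted genes that lie among the Krtap genes also read higher on ATRA+NIC. Krtap clusters on chromosomes 1, 7, 10, 11 and 16, with 200000 bases added on each side (a limit set after values were seen), held 105 described genes; 62 were at least 2-fold higher, 0 lower, and their median difference was 1.18. Of 56 unnamed genes inside these clusters 33 were at least 2-fold higher, with a median of 1.11, while of 785 unnamed genes elsewhere 7 were, with a median of 0.05. On chromosome 16 (88410710 to 89708568 on MM9 with the flanks), which holds the glycine-tyrosine and several sulfur-rich families, 28 of 35 described genes were at least 2-fold higher. The share varied between clusters, with 6 of 8 on chromosome 1, 17 of 32 on chromosome 11, 6 of 15 on chromosome 10 and 5 of 15 on chromosome 7. Of the 62 genes, 60 were at least 2-fold higher with dim ATRA readings at their bound.

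Other follicle genes had smaller or negative differences. Inner root sheath genes, which mould the growing hair, had a median of 0.38 and were split, with 5 of 9 above 0. Krt72, a sheath keratin, read 1341 on ATRA+NIC and 629 on ATRA (1.09), and trichohyalin (Tchh) read 11162 and 6524 (0.77). The sheath keratins Krt26 and Krt25 were at 0.94 and 0.60, though Krt26 was dim, at 157 on ATRA+NIC and 82.1 on ATRA. Krt71 read 8722 and 10642 (-0.29). Of the 9 genes, 1 was at least 2-fold higher. Hair matrix and follicle regulators, which direct cells of the hair bulb, had a median of -0.49, with 6 of 7 described members below 0. Lhx2, a transcription factor of follicle precursors, read 1073 on ATRA+NIC and 1892 on ATRA, and Bmp4, a ligand of the follicle's signalling cells, read 237 and 385. All 7 described genes of stem and bulge cells read lower on ATRA+NIC, with a median of -0.26, among them Krt15 at 1513 and 1929.9 and Cd34 at 1588 and 1989.6. Melanocyte genes had a median of -0.43 with 4 of 4 below 0; Pmel, a scaffold protein of pigment granules, read 457 on ATRA+NIC and 791 on ATRA. None of the described regulator, bulge and melanocyte genes differed by 2-fold, and 98.0% of all described genes lay within 2-fold. Too dim to be described were 11 of 18 regulator, 5 of 12 bulge and 8 of 12 melanocyte genes on the array.

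**Figure D4:**
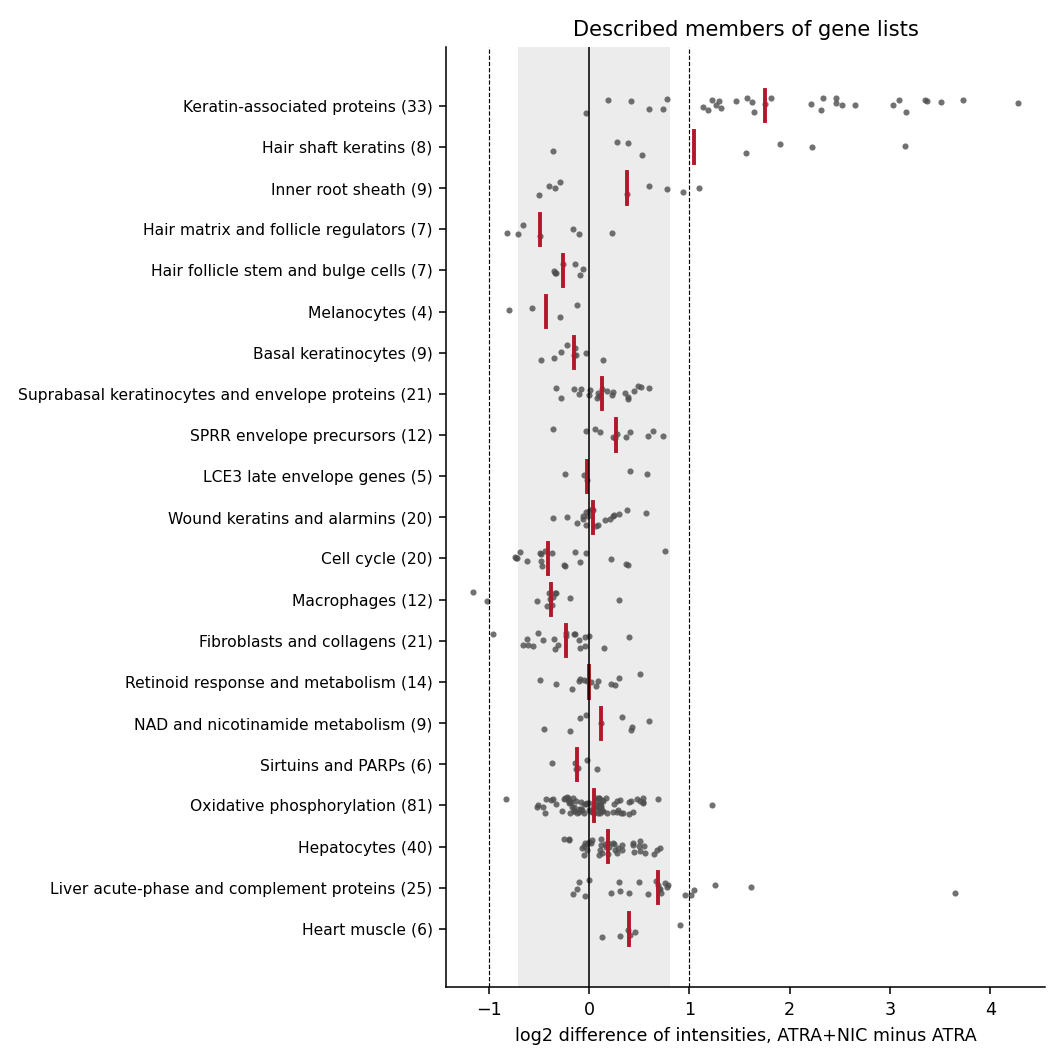
Log2 difference of intensities, ATRA+NIC minus ATRA, for the described members of 21 gene lists, with a point for each gene, a red bar for the list's median and the number of genes in brackets. The grey band holds the middle 95% of all described genes (-0.69 to 0.79) and dashed lines mark 2-fold; the Krtap median of 1.75 lies outside the band, the acute-phase median of 0.69 inside it, and the cell cycle and macrophage medians lie below 0.

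Genes of liver-made acute-phase and complement proteins were the next group. These are plasma proteins whose output rises in inflammation; the list was put together after liver signals had been seen on the arrays, and several of its members were first noticed among the most different genes. Of 25 described members 21 read higher on ATRA+NIC, against 49.3% of all described genes. At least 2-fold higher were 5, against 1.57% of all described genes, and the list's median was 0.69. Hamp, which encodes the iron-regulating hormone hepcidin (chromosome 7), read 1937 on ATRA+NIC, 154 on ATRA, 414 on NIC and 259 on Control, a 12.6-fold difference between ATRA+NIC and ATRA. The ATRA+NIC array stood above the other 3 in this gene, and ATRA was the lowest. Apcs, the gene of serum amyloid P, read 1118, 366, 262 and 609 (1.61), and C4bp, whose product holds complement in check, read 4546, 1899.5, 1648 and 1667 (1.26). Saa2, a serum amyloid A, read 3989, 1936, 1084 and 1869 (1.04).

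The liver lists as a whole were also higher on ATRA+NIC, though less so. Hepatocyte genes had a median of 0.19 with 31 of 40 above 0 and 0 at least 2-fold apart. Of all described genes, 98.0% lay within 2-fold. Above the hepatocyte median lay 20 of the 25 acute-phase genes, with 0.50 between the medians of both lists. Several acute-phase genes had first been noticed for their differences, so this gap is a description only. Alb read 14689 on ATRA+NIC and 15459 on ATRA (-0.07), Cyp2e1 read 28048 and 32254 (-0.20), the glucose-releasing enzyme gene G6pc 3432 and 2139.8 (0.68), and the urinary protein gene Mup3 8628 and 5291 (0.71). The fibrinogen gene Fga (-0.10), Cfb (-0.16) and Serpina3n (-0.12) were exceptions within the acute-phase list, and C3, the central complement protein, read 13999 and 13991 (0.00); these were picked out after their values were seen. Heart muscle genes had a median of 0.40 with 6 of 6 described members above 0, and the troponin gene Tnni3 read 1099 on ATRA+NIC and 586 on ATRA. The part of liver or heart RNA in the acute-phase differences was not tested.

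Promoters of Hamp and Saa2 are shown because Hamp had the largest difference outside the hair genes and its control is well known: inflammatory signals act on it through a STAT site and iron signals through BMP-responsive sites. Capitals mark TTCNNNGAA, the STAT motif, GGCGCC, the core of the BMP-responsive site, and TTGCNNAA, a C/EBP motif, all searched on both strands in the RefSeq windows of Hamp (chr7:30943980-30944279, minus strand) and Saa2 (chr7:46751583-46751882, plus strand):
Hamp: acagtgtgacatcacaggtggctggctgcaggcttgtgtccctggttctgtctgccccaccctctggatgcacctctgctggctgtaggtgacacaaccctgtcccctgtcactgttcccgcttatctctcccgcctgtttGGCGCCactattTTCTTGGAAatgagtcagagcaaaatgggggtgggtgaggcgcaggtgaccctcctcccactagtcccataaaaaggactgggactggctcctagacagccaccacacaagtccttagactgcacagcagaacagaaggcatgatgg
Saa2: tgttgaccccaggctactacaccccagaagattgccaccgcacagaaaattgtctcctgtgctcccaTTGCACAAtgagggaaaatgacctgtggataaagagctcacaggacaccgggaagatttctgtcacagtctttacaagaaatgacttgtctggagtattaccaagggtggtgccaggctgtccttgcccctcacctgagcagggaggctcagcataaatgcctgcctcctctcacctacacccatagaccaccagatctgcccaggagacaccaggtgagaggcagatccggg
In Hamp GGCGCC begins at -109 and TTCNNNGAA at -97, and the matches do not overlap; in Saa2 TTGCNNAA begins at -183. Of 21 described acute-phase genes with a window, 6 held TTCNNNGAA (28.6%), 7 held TTGCNNAA (33.3%) and 1 held GGCGCC (4.76%). Shares of all windows were 8.30%, 10.8% and 11.9% in that order. Among windows of described genes they were 6.58%, 9.72% and 20.0%. The motifs were chosen after the values were seen, and several list members had been noticed for their differences, so these shares are descriptions.

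Among the 30 higher genes outside the hair and liver lists, several are known from hair or from liver. Gprc5d, an orphan receptor of the hair-forming cells, read 239.8 on ATRA+NIC and 61.5 on ATRA, and Car6, a secreted carbonic anhydrase, read 213 and 58.7; both ATRA readings lie under 2 times the random probes, so they were at least 3.44-fold and 3.06-fold higher. Efhd1, a calcium-binding protein of mitochondria, read 609 and 132 (2.21), with 940.1 on NIC and 368 on Control. Dapl1, a gene of differentiating epithelia, read 835 and 318 (1.39). Cyp2c70, which makes muricholic bile acids in mouse liver, read 970.2 and 395 (1.30), and all 3 of its targets differed by 1.26 to 1.35. Ugt2a3, a glucuronidating enzyme, read 1025 and 403 (1.35).

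The remaining higher genes come from varied processes. Mrpl41, a mitochondrial ribosome protein, read 1669 on ATRA+NIC and 616 on ATRA (1.44), and Atp5j, a coupling factor of ATP synthase, read 2457 and 1048 (1.23). Frrs1, a reductase-like membrane protein, read 1524 and 629.7 (1.28), and Wbp4, a spliceosome protein, read 836 and 349.7 (1.26). The transcription factor gene Irx3 read 578 and 253 (1.19), Lims2, which links integrins to actin, 1098 and 488 (1.17), and Bbox1, the last enzyme of carnitine synthesis, 1396 and 627 (1.16). Nsmce2 (1.16) had targets that disagreed, at 0.04 and 2.29. Genes of oxidative phosphorylation were not higher as a group, with a median of 0.05 over 81 described genes. Atp5j was their only member at least 2-fold apart. Of all described genes, 1.57% were at least 2-fold higher and 0.393% at least 2-fold lower.

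The 25 lower genes form no list of their own. Rpl13-ps5, a pseudogene of the ribosomal protein gene Rpl13, read 284 on ATRA+NIC, 3237 on ATRA, 294 on NIC and 661 on Control, the lowest difference at -3.51; it was highest on the ATRA array. Rpl13 itself, looked up after this value was seen, read 579.6 on ATRA+NIC and 535 on ATRA. Psmb7, a catalytic subunit of the proteasome, read 389 and 1100.4 (-1.501), but its targets differed in size, at -2.43 and -0.57, and the 35 proteasome genes had a median of -0.02. Mif-ps, another pseudogene, had targets at -2.90 and 0.45, and the helicase gene Dhx38 at -2.17 to 0.08, so their values rest on disagreeing probes. Bmp2, a growth factor of the follicle and bone, read 191 and 482 (-1.33), and Casp8, the initiator caspase of death receptors, read 325 and 655 (-1.01).

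C1qc and Cd248 were the brightest of the lower genes on both arrays. C1qc, a chain of the complement recognition protein made by macrophages, read 6138 on ATRA+NIC, 12385 on ATRA, 4689.7 on NIC and 7840.0 on Control (-1.01). Cd248, a surface protein of fibroblasts and pericytes also called endosialin, read 3519, 7569.6, 6812 and 5042 (-1.11). Tyrobp, the signalling adaptor of myeloid receptors, read 448 on ATRA+NIC and 995 on ATRA (-1.15), and Pira6, a receptor of the same cells, read 393 and 825 (-1.07). P3h4, which takes part in collagen modification, read 509 and 1311 (-1.37), Tmem216, a protein of the ciliary base, 266 and 723 (-1.44), and Cby1, a ciliary protein that binds beta-catenin, 281 and 682 (-1.28). The cell cycle factor gene Foxm1 read 241 and 545 (-1.18), with targets at -1.64 and -0.71.

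Cell cycle, macrophage and fibroblast genes lay mostly below 0. Of all described genes, 49.3% lay above 0 and 98.0% lay within 2-fold. Of 20 described cell cycle genes 16 read lower on ATRA+NIC, with a median of -0.40, and 0 were at least 2-fold apart; Top2a, which untangles DNA in dividing cells, read 1064 and 1763 (-0.73), and Mki67 read 1015 and 1208 (-0.25), while Mcm6 was higher (0.76) with targets at -0.25 and 1.77. Of 12 macrophage genes 11 read lower, with a median of -0.38, and 2 were at least 2-fold lower (Tyrobp and C1qc, given above), against 0.393% of all described genes. C1qa read 3990.4 and 5124 (-0.36) and C1qb 3273 and 4151 (-0.34). Of 21 fibroblast and collagen genes 18 read lower, with a median of -0.23; Mfap5, a microfibril protein, read 828 and 1608 (-0.96), Timp1, an inhibitor of matrix proteases, 1606 and 2465 (-0.62), and Col1a1 30739.9 and 31605 (-0.04). Among adipocyte genes (median -0.26, 8 of 11 below 0) the hormone gene Adipoq read 1869.6 and 3681 (-0.98). Nqo1, a quinone reductase and NRF2 target, read 538 and 1075 (-0.998, just short of 2-fold), while the 22 NRF2 and glutathione genes had a median of 0.05.

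Gene lists of the epidermis differed little, though RNA from whole skin does not separate epidermis from follicles. Basal keratinocyte genes had a median of -0.15 with 8 of 9 below 0; Krt5 read 30034 on ATRA+NIC and 36543 on ATRA (-0.28). Suprabasal and envelope genes had a median of 0.13, and Krt10, the keratin of differentiating layers, read 38720.03 and 29616 (0.39). Small proline-rich (SPRR) envelope precursors had a median of 0.27 with 10 of 12 above 0, and Sprr2h read 27266 and 16362 (0.74). In the LCE1 family of late envelope genes, 1 of 8 was at least 2-fold higher, Lce1m, which read 1537 on ATRA+NIC, 688 on ATRA, 4141 on NIC and 3624 on Control (1.16). Wound keratins and alarmins were close on both arrays, with a median of 0.04, and S100a8 read 24707 and 24863. Of 12 kallikrein and TMPRSS11 protease genes, which cut proteins of the outer epidermis, 0 were 2-fold apart. Of all described genes, 98.0% lay within 2-fold. Klk7 read 14044 and 8707 (0.69).

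Genes that make or use NAD and genes of the retinoid pathway were not 2-fold apart in any described member. Of all 6363 described genes, 98.0% lay within 2-fold as well. Of 26 NAD and nicotinamide genes on the array 9 were bright enough to be described, with a median of 0.12 and a range of -0.45 to 0.60. Nampt, the enzyme that turns nicotinamide into its mononucleotide, read 967 on ATRA+NIC and 986 on ATRA (-0.03). Naprt, which does the same for nicotinic acid, read 562 and 447 (0.33), and Haao, of the pathway from tryptophan, read 861 and 568 (0.60). Qprt, the next enzyme of that pathway, read 2597 and 1930.15 (0.43), and Tdo2, its first, 8108 and 7439 (0.12). Nt5e, which cleaves extracellular nucleotides, read 354 and 483 (-0.45). The arrays also carried strong liver signals, with a hepatocyte list median of 0.19. The part of liver RNA in the readings of these NAD genes, Haao, Qprt and Tdo2 among them, was not tested. Of 23 sirtuin and PARP genes 6 were described, with a median of -0.12; Parp1 read 312 and 403 (-0.37) and Sirt2 3377 and 3693 (-0.13).

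Retinoid genes had a median of 0.00 over 14 described members. Crabp2, which carries retinoic acid to its receptors, read 14542 on ATRA+NIC and 14341 on ATRA (0.02), and Cyp26b1, which degrades retinoic acid, read 1566 and 1616 (-0.05). The receptor gene Rarg read 1702 and 1195 (0.51), Rara 572 and 479 (0.26), and Aldh1a1, which makes retinoic acid, 8499 and 6894 (0.30). Adh7, an alcohol dehydrogenase that oxidises retinol, read 645 and 907 (-0.49), and Rarres2, the gene of chemerin, 3422 and 4299 (-0.33).

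The NIC and Control arrays give the nicotinamide comparison without ATRA, and they share no array with ATRA+NIC minus ATRA. In NIC minus Control 160 genes (2.51%) were at least 2-fold higher and 151 (2.37%) at least 2-fold lower. Higher in both comparisons were 45 genes and lower in both 1, Rpl13-ps5; 2 were higher in ATRA+NIC minus ATRA and lower in NIC minus Control, and 1 the reverse. Without genes of the hair lists and the Krtap clusters 5 of the 45 were left: Gprc5d, Car6, Ly6g6d, Dapl1 and Efhd1. Absence from the hair lists does not make a gene unrelated to hair, as Gprc5d is a receptor of the hair-forming cells. The 33 Krtap genes had medians of 1.75 in ATRA+NIC minus ATRA and 1.55 in NIC minus Control, and 32 were above 0 in both. The limit of 8.5 could admit such genes through their NIC and Control readings. Krtap16-3, another gene of the family, was at 2.33 and 2.44, though its ATRA reading of 58.7 is under 2 times the random probes.

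Of the 151 genes at least 2-fold lower in NIC minus Control, 89 were above 0 in ATRA+NIC minus ATRA (58.9%, against 49.3% of all described genes), with a median of 0.06 there. Within 2-fold there were 148 of them (98.0%), the same share as over all described genes (98.0%). S100a9, an alarmin of stressed epidermis and neutrophils, was at -0.03 in ATRA+NIC minus ATRA (27479.5 and 28062) and at -1.51 in NIC minus Control (2583 and 7360.5). Sprr2g was at 0.41 (4776 and 3604) and -1.94 (251 and 961), and Lce3b at 0.41 (2299 and 1729.5) and -2.23 (113 and 530). The difference between both comparisons could not be tested with 1 array per group. Housekeeping groups were close in both: 77 cytosolic ribosomal protein genes had medians of 0.01 and 0.18, and 17 glycolysis genes -0.02 and -0.09.

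**Figure D5:**
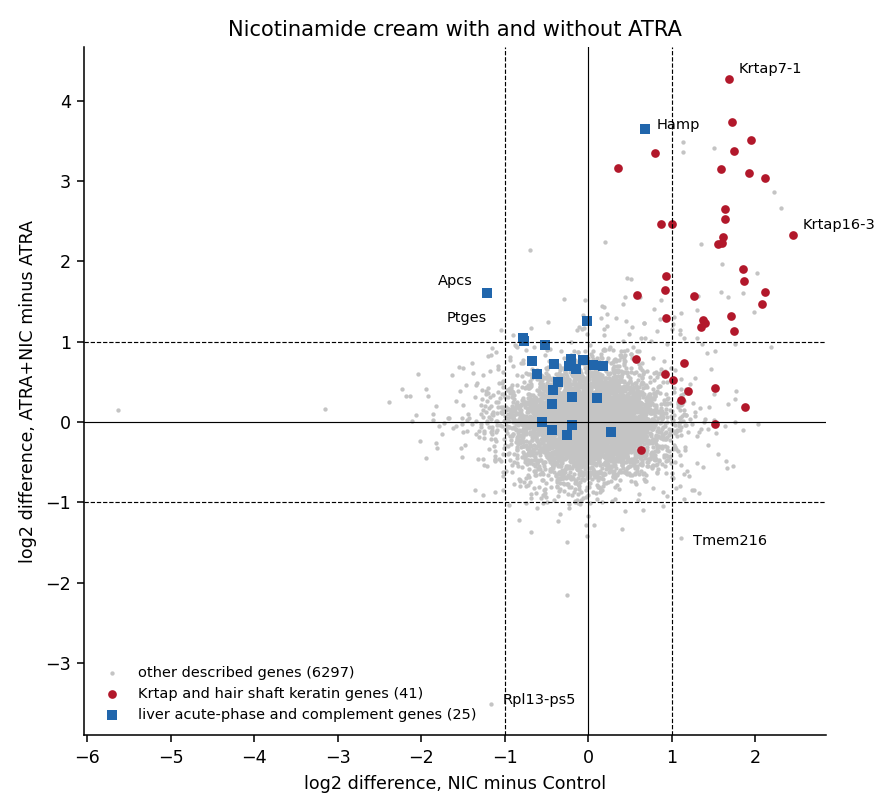
Log2 difference ATRA+NIC minus ATRA (vertical axis) against NIC minus Control (horizontal axis) for 6363 described genes, with dashed lines at 2-fold. Krtap and hair shaft keratin genes (red) lie mostly in the upper right, and liver acute-phase genes (blue) mostly above 0 on the vertical axis and below 0 on the horizontal.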

How the data were processed

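RNA from mouse back skin was measured on NimbleGen 1-colour (Cy3) expression arrays, 1 array for each of 4 groups. The authors deposited 1 linear intensity for each target, made by RMA per the file names, a method of background correction, between-array normalization and probe summary (3 probes for 44155 of 44170 targets). The software is not given in the sources used here. Another 8 per-array columns were not used.

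Intensities were put on log2 with no further normalization. Symbols were updated by gene ID through RefSeq (GRCm38.p6) for 39057 targets; 2829 kept the array's symbol and 2284 had none. Positions are MM9, per the file headers, and promoter windows GRCm38.p6. Targets of a gene were averaged on log2. Genes averaging 8.5 or more over the 4 arrays were described, and a difference of 1 on log2 counted as 2-fold; counts and folds were checked on simulated differences. Under 2 times the random probes on ATRA, only a bound was given, against that limit. Signal over background limits dim genes: 58.7%, 59.5%, 60.0% and 60.2% of targets on ATRA+NIC, ATRA, NIC and Control read at least 2 times the random probes. Python 3.11.15, numpy 2.4.6, pandas 2.3.3, R 4.3.3 and limma 3.58.1 (for normalization alternatives only) were used. The 5000 random probes form 1 control value per array.

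Groups came from the labels. The genes named were the 25 highest and 25 lowest named genes at least 2-fold apart (at most 3 Krtap and 3 hair keratin genes each way), up to 10 each way in both nicotinamide comparisons, the first 2 described and the 4 farthest members of each list (the added ones too), and all described NAD, sirtuin, PARP and retinoid genes; others are marked. The genes, the 43 lists and the rules were chosen with earlier results of these data known; 8 organ lists, Krtap clusters, Krtap protein classes and motifs were added after values were seen. In all, 9 alternatives and 2 added later were run.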

Additional observations from a re-analysis of the deposited data

Results flagged for a closer look

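Several results went opposite ways in ATRA+NIC minus ATRA and NIC minus Control, and these differences were not tested because each group has 1 array. Tmem216, a gene of the ciliary base, was at -1.44 (266 and 723) and 1.11 (602 and 279). Apcs, the gene of serum amyloid P, was at 1.61 (1118 and 366) and -1.22 (262 and 609). Ptges, a prostaglandin E synthase gene chosen for its values, was at 1.14 (826 and 374) and -1.05 (207 and 429).

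Medians of 5 lists also took opposite signs, each at least 0.25 from 0 (a limit set after values were seen). Hair matrix and follicle regulators were at -0.49 and 0.77, melanocyte genes at -0.43 and 1.38, and SPRR envelope precursors at 0.27 and -0.75. Liver acute-phase and complement genes were at 0.69 and -0.26, and heart muscle genes at 0.40 and -0.29. The summed intensity of the hepatocyte list moved the same way, at 308381 on ATRA+NIC and 276708 on ATRA, and at 213133 on NIC and 250064 on Control; its part in these results was not tested.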

How the results depend on the processing

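No paired analysis was possible because each group has 1 array. With the brightest target of each gene, 118 genes were at least 2-fold higher and 62 lower; with a minimum mean of 8 or 9 in place of 8.5, 53 and 12 were lower. The count of higher genes was 79 to 123 under the 9 alternatives. Without hair genes and genes inside the Krtap clusters, an alternative added after seeing the data, 35 were higher. The hair shaft keratin median was 0.53 with the array's own symbols and 0.46 with a minimum mean of 8. The sign of Mif-ps turned with the brightest target and in the deposited value table (0.45 in both), and that of Dhx38 with the brightest target (0.0757). Of 2440 values of 281 named genes under 9 alternatives, 34 others moved by 0.25 or more on log2, and of 414 list medians 4 did, with no other turn of sign among genes at least 2-fold apart. No scaling moved the median of all genes by more than 0.1. Precision is limited by 1 array per group, by a single target for most genes, and by background for dim genes.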
